A study of Mus musculus with 8 samples.

Results

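Genes of the mammalian circadian clock were followed in RAW264.7, a macrophage-like mouse cell line of BALB/c origin, after contact with either of 2 bacterial strains studied as potential probiotics. The 10 genes were Bhlhe40, Bhlhe41, Per1, Per2, Cry1, Cry2, Nr1d1, Nr1d2, Arntl and Clock, taken as every non-control spot whose gene name was one of these symbols or an older or newer form of it. They were carried by 19 of the 41174 probes, and 9 of them were among the 14857 genes that gave enough signal to be tested. One probe named Stra13, an older name of Bhlhe40, was left out because its accession is that of Cenpx.

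Cells were grown without antibiotic and treated at a multiplicity of infection of 100 with Lactobacillus acidophilus MTCC-10307 or with Bacillus clausii MTCC-8326 (below L. acidophilus and B. clausii). RNA was taken after 1, 2, 4 and 6 h, and for every bacterium and time equal amounts of RNA from 3 cultures were combined before labelling. Each of the 8 two-colour Agilent arrays then set treated RNA, labelled with Cy5, against RNA of untreated cells of the same time, labelled with Cy3. There was thus 1 array per bacterium and time, and a single array has no replicate. All values below are log2 ratios of treated to untreated signal unless a channel is named, so that 1 is a 2-fold higher and -1 a 2-fold lower level in treated cells.

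The clock is a transcriptional loop. CLOCK and ARNTL (also called BMAL1) bind E-box sequences and activate the Per and Cry genes, whose proteins return to repress CLOCK and ARNTL. The nuclear receptors NR1D1 and NR1D2 (REV-ERB alpha and beta) are also E-box targets and repress Arntl, while BHLHE40 and BHLHE41 (DEC1 and DEC2) are repressors that compete at E-boxes. In macrophages Bhlhe40 is in addition known as a regulator of cytokine genes, and Nr1d1 and Nr1d2 as repressors of inflammatory genes.

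The start regions of the 3 members with the largest ratio on a single array, in either direction, besides Bhlhe40 are shown. They carry the short motifs that this loop uses. The sequences are from RefSeq (GRCm38.p6), minus strand in each case, and cover the 250 bases before the annotated start of the gene. Capitals mark matches to the E-box CACGTG, the related CACGTT and the receptor half-site AGGTCA, each searched on both strands.
Cry1, chr10:85185055-85185304: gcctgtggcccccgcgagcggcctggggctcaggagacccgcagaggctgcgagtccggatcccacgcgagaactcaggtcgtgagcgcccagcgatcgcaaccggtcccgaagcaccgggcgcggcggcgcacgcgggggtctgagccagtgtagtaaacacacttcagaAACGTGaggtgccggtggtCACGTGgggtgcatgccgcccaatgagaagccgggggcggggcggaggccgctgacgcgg
Nr1d1, chr11:98775378-98775627: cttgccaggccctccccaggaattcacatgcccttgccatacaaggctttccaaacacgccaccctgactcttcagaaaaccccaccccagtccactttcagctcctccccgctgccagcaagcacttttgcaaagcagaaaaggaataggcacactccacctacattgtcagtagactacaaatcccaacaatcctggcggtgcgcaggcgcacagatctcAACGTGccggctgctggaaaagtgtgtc
Nr1d2, chr14:18239107-18239356: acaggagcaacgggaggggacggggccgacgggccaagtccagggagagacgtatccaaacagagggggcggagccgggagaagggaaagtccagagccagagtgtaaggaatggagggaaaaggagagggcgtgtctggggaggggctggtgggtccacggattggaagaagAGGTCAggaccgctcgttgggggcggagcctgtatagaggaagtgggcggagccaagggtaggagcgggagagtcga
The Cry1 sequence holds the E-box and, upstream of it, the related motif on the other strand. The Nr1d1 sequence also holds the related motif on the other strand, and the Nr1d2 sequence holds the half-site. Of the 10 members, 8 were in the promoter table, with 12 windows of 300 bases, from 250 before to 50 after the start; Bhlhe40 and Per2 were not. The E-box was found in 3 of the 12 windows (Bhlhe41, Per1, Cry1) and in 7.15% of all 32851 windows. The related motif was in 3 (Cry1, Cry2, Nr1d1; 4.68% of all) and the half-site in 4 (Per1, Nr1d2, Arntl, Clock; 16.3% of all). The D-box TTATGTAA was in 0 of the 12 (0.938% of all). These matches overlapped in none of the 3 sequences printed and describe letters only.

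Among the probes, the pair within Nr1d1 is shown because their readings differed, and the Cry1 probe because it carries the clearest fall. The letters are those of the array files, in the sense of the transcript.
Nr1d1, A_51_P223776: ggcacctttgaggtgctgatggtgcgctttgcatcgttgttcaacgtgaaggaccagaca
Nr1d1, A_52_P130952: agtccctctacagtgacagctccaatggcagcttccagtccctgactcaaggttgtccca
Cry1, A_51_P302204: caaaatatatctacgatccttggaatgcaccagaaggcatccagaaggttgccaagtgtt
In the coordinates of the files (mm9) the first Nr1d1 probe maps to chr11:98630526-98631028, minus strand. Its 60 bases span 503 bases of genome and so cross a splice junction. The second lies at chr11:98633332-98633391 and the Cry1 probe at chr10:84606495-84606554, both on the minus strand and each without a gap in the genome.

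RNA of the labelled cell type was present: 7 of 8 macrophage markers (Adgre1, Csf1r, Cd68, Lyz2, Ptprc, Cd14, Fcgr3) were well above background in both channels of all 8 arrays, and Itgam on 3 untreated and 5 treated channels. Of the markers of other cells, Col1a1 and Epcam were above background in none, Pdgfra in 1 channel of each colour and Krt8 in 2 treated channels. Cd3e was above background on 7 arrays in each channel, Cd8a on 3 and 7 and Cd79a on 3 and 2 (untreated and treated), at mean net signals of 62.6 to 172 against 404 to 35010 for the 7 macrophage markers; their part in the results was not tested. Per channel, 39.7% to 51.6% of probes exceeded background clearly, 0.473% to 0.717% of spots per array were left out as flagged, and repeated spots of a probe differed by a median SD of 0.0966 to 0.130 (log2).

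Tests used limma on all 8 arrays, with terms for bacterium and time and 3 residual degrees of freedom, and p-values adjusted over the 14857 genes by Benjamini-Hochberg. A gene was called at an adjusted p under 0.05, and values after ± are standard errors of that fit. Its spread is the disagreement of the bacteria within a time, so p-values do not contain the scatter between cultures. The labels do not say whether both arrays of a time used the same untreated RNA; if they did, their ratios share a denominator and the untreated channel holds 4 pools, not 8. Because no array exchanged the dyes, a constant dye effect on a gene cannot be told apart from its mean response. That effect cancels in differences between times and between bacteria, but slides there coincide with bacteria and slide positions with times. Each gene is represented by its brightest probe, and fewer cells with a transcript and less of it per cell cannot be told apart.

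Bhlhe40 had the highest ratio of the 9 measured members on 7 of 8 arrays. Nr1d1 was raised at 2 and 4 h by its brightest probe, and Cry1 was lower in treated cells on every array. Nr1d2 was lower at 1 and 2 h and higher at 4 h. At 6 h Nr1d2 stood at 0.12 with L. acidophilus and -0.10 with B. clausii. With L. acidophilus, 4 members rose (Bhlhe40, Nr1d1, Per2, Clock) and 1 fell (Cry1) in the mean over the 4 times, among 42.1% of all genes called (23.7% higher, 18.4% lower). With B. clausii, 2 rose (Bhlhe40, Nr1d1) and 2 fell (Cry1, Nr1d2), among 44.1% of all genes called (23% higher, 21.1% lower). Both shares of members, 5 and 4 of 9, lie near these backgrounds. Median centring of the arrays gave 1 higher and 1 lower with L. acidophilus and 1 higher and 4 lower with B. clausii, and moved the median of all genes to -0.08 and -0.25 in turn. The median estimate over the 9 members was 0.06 with L. acidophilus and 0.07 with B. clausii, against 0.02 and 0.01 over all genes. Bhlhe40 was the only member to reach 2-fold on any array, which 1.63% of all genes did.

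**Figure D1:**
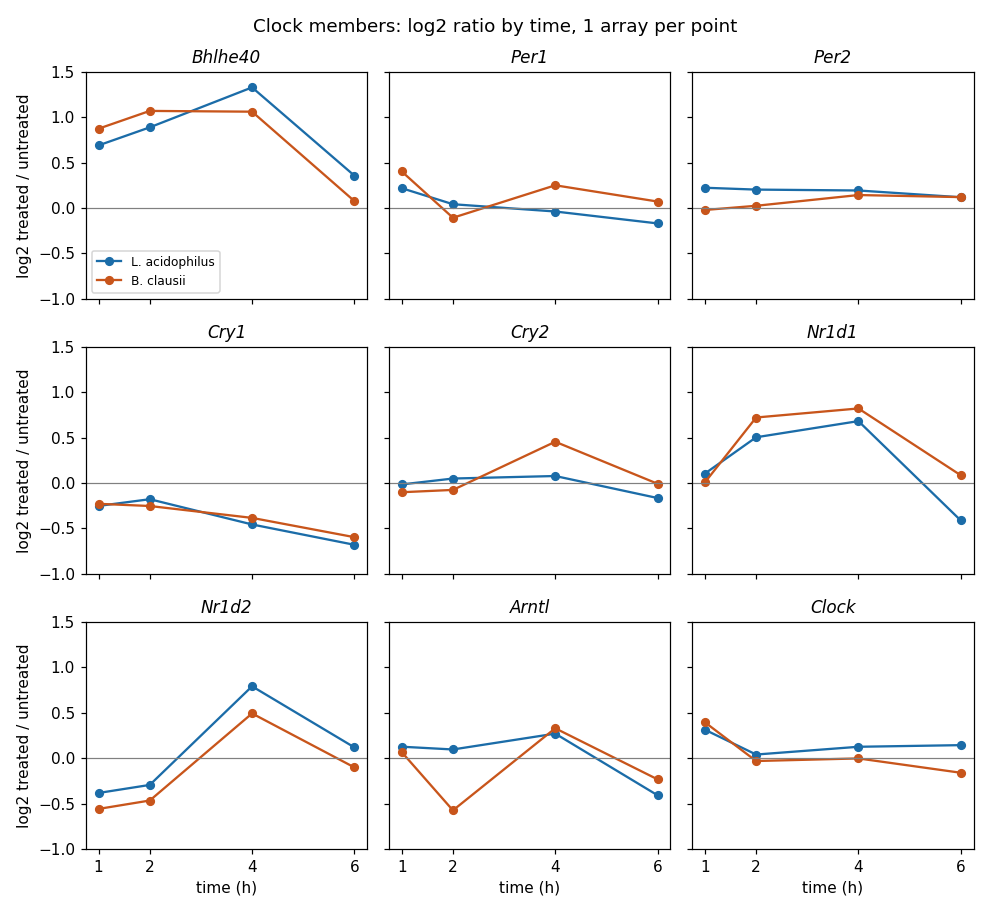
Log2 ratio of treated to untreated signal (vertical axis) against time in hours (horizontal axis) for the 9 measured members, with 1 array per point, L. acidophilus in blue and B. clausii in orange. Bhlhe40 lies above 0 on all 8 arrays and Cry1 below 0 on all 8, and Nr1d2 crosses from below to above 0 between 2 and 4 h with both bacteria.

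Bhlhe40, a repressor of the loop (A_51_P272553, chr6:108616309-108616368 in mm9, plus strand), stood at 0.69, 0.89, 1.33 and 0.36 after 1, 2, 4 and 6 h with L. acidophilus against 0.87, 1.07, 1.06 and 0.08 with B. clausii. All 8 arrays were above 0, the highest being 4 h with L. acidophilus (2.51-fold) and the lowest 6 h with B. clausii (1.05-fold). In order, 4 h with L. acidophilus was followed by 2 h and 4 h with B. clausii (2.10- and 2.09-fold), then L. acidophilus at 2 h, B. clausii at 1 h and L. acidophilus at 1 h, and both 6 h arrays came last. The 2 h and 4 h B. clausii arrays differed by 0.0085, and 2 h with L. acidophilus and 1 h with B. clausii by 0.015, both less than the median SD between repeated spots.

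On the 4 h L. acidophilus array Bhlhe40 ranked 3 of 14857 genes from the top, and it ranked 134 and 20 at the earlier times. With B. clausii it ranked 108, 13 and 13 at 1, 2 and 4 h. At 6 h it was no longer among the leading genes, at rank 1168 with L. acidophilus and 6014 with B. clausii. The mean response was 0.82 ± 0.07 with L. acidophilus (limma adjusted p = 1.28e-04) and 0.77 ± 0.07 with B. clausii (adjusted p = 7.00e-05), which median centring reduced to 0.43 with B. clausii. The bacteria differed by 0.05 ± 0.09, with a 95% interval of -0.17 to 0.26, and this was not called (adjusted p = 0.799).

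The untreated channel of Bhlhe40 kept within 7.76 to 8.12 (log2 normalized signal) over the 8 arrays, a range of 0.35. The treated channel ran from 7.84 to 9.23, a range of 1.39. Only the 6 h treated value with B. clausii (7.84) lay within the range of the untreated values, and the other 7 treated values lay above it.

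**Figure D2:**
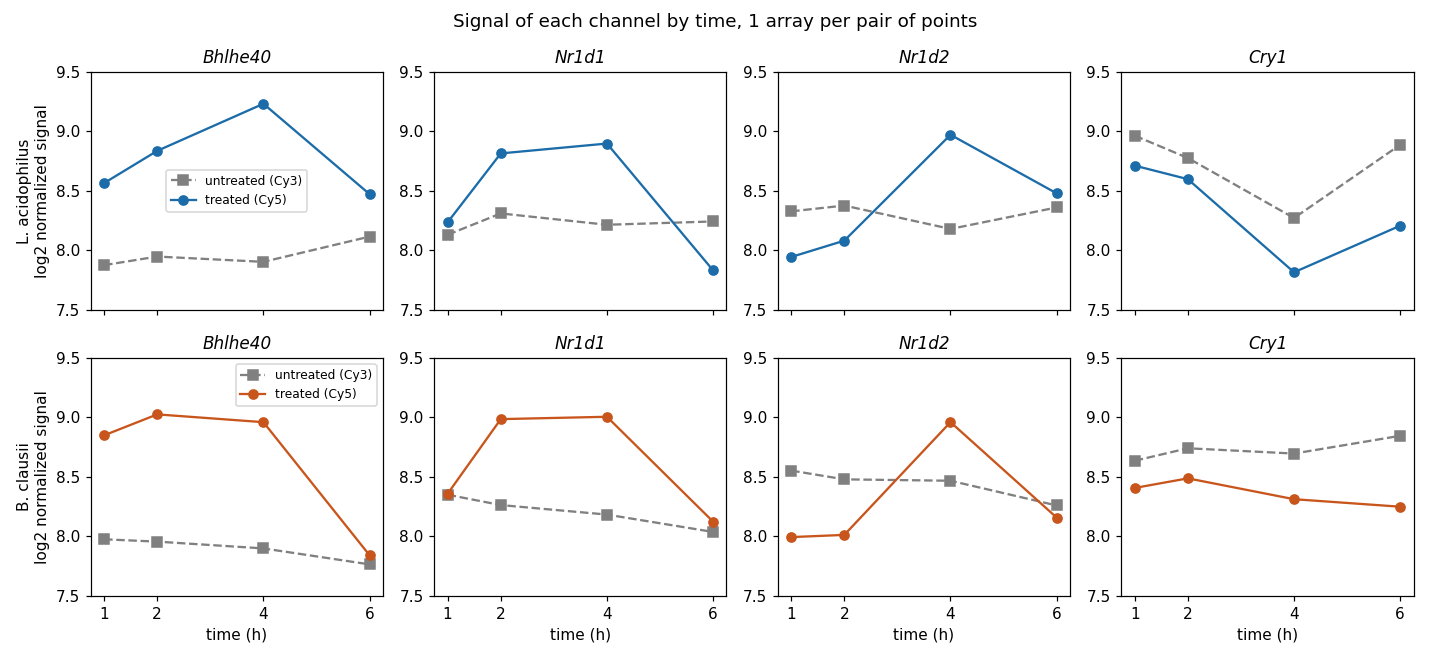
Log2 normalized signal of the untreated (grey squares, Cy3) and treated (coloured circles, Cy5) channel against time in hours for Bhlhe40, Nr1d1, Nr1d2 and Cry1, with L. acidophilus in the upper and B. clausii in the lower row and 1 array per pair of points. Untreated Bhlhe40 stays within 0.35 while its treated signal spans 1.39, and for Cry1 both channels move together on the L. acidophilus arrays.

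Bhlhe41, the close relative of Bhlhe40 with the same role, could not be measured. Neither of its 2 probes was well above background in either channel of any array, so there is no ratio and no direction to give.

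Among the E-box targets that act on Arntl, Nr1d1 (A_51_P223776) stood at 0.11, 0.50, 0.68 and -0.41 with L. acidophilus against 0.01, 0.72, 0.82 and 0.09 with B. clausii. It was near 0 at 1 h, highest at 2 and 4 h, and back near or below 0 at 6 h. On the 4 h arrays it ranked 76 with L. acidophilus and 49 with B. clausii. Its mean response was 0.41 ± 0.06 with B. clausii (limma adjusted p = 0.00112), which median centring of the arrays reduced to 0.06 (adjusted p = 0.561). The mean with L. acidophilus was 0.22 ± 0.06 (adjusted p = 0.0225), and this call was lost in 11 of 26 alternatives, among them the fits without the 1, 2 or 4 h L. acidophilus array (0.12, 0.23 and 0.20).

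The other Nr1d1 probes did not reach these ratios. A_52_P130961 (chr11:98636435-98636494 in mm9) was higher in treated cells on all 8 arrays, with means of 0.31 ± 0.04 and 0.26 ± 0.04 for L. acidophilus and B. clausii (adjusted p = 8.97e-04 and 0.00127 over all kept probes), and its difference of 6 h from 4 h was 0.07 ± 0.09. A_52_P130952, the dimmest of the 3, stood at 0.05, 0.14, 0.06 and 0.00 with L. acidophilus against -0.16, 0.07, 0.04 and -0.09 with B. clausii. Its highest values were also those of 2 and 4 h, but none passed 0.14. Its means of 0.06 ± 0.04 and -0.03 ± 0.04 were not called. All 3 were well above background in both channels of all 8 arrays, so the size of the peak and the calls at its end rest on 1 of the 3 probes.

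Nr1d2 (A_52_P303891, chr14:19037253-19037312 in mm9, minus strand) stood at -0.38, -0.30, 0.79 and 0.12 with L. acidophilus against -0.56, -0.47, 0.49 and -0.10 with B. clausii. The 4 arrays of 1 and 2 h were all below 0 and all lower than the 4 arrays of 4 and 6 h. Both 4 h arrays were the highest, at 1.73- and 1.41-fold. At every time the L. acidophilus array was above the B. clausii array, and the difference of the means, 0.22 ± 0.06, was not called (limma adjusted p = 0.103). The mean with B. clausii was -0.16 ± 0.04 (adjusted p = 0.0114). That call was lost in 6 of 26 alternatives, among them the fits without the 2 or 4 h B. clausii array (-0.17 and -0.13).

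In the comparison of 4 and 6 h with 1 and 2 h over both bacteria, Nr1d2 rose by 0.75 ± 0.06 (limma adjusted p = 2.31e-04) and Cry1 fell by 0.30 ± 0.06 (adjusted p = 0.00715). These were the only members called, 2 of 9 among 24.5% of all genes (12.2% higher, 12.3% lower). The Nr1d2 call held in 26 of 26 alternatives, between 0.43 (without both 4 h arrays) and 1.07. The same comparison in the treated channel alone gave Nr1d2 a rise of 0.63 ± 0.09 (adjusted p = 0.0105) and Per1 a difference of -0.41 ± 0.10 (adjusted p = 0.0440), 2 of 9 members among 12.2% of all genes (5.94% higher, 6.24% lower). Leaving out the 2 or 4 h array of either bacterium ended the Nr1d2 call in that channel (0.61 to 0.66, adjusted p of 0.0654 to 0.0782). In the untreated channel 0 of 9 members were called (0.902% of all genes), with 2 at an unadjusted p under 0.05 (Arntl and Clock), and Nr1d2 differed there by -0.12 ± 0.08.

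Differences between successive times were compared after the courses had been seen. From 2 to 4 h Nr1d2 rose by 1.02 ± 0.08 (limma adjusted p = 0.00158), the only member called among 1.44% of all genes (1.03% higher, 0.411% lower). From 4 to 6 h Bhlhe40 fell by 0.98 ± 0.13 (adjusted p = 0.0130), Nr1d1 by 0.92 ± 0.13 (adjusted p = 0.0137) and Nr1d2 by 0.63 ± 0.08 (adjusted p = 0.0114), 3 of 9 members among 3.52% of all genes (1.34% higher, 2.18% lower). The median of the 9 members for this step was -0.35, against 0.00 over all genes. By brightest probe all 9 estimates were below 0, and 6 had an unadjusted limma p under 0.05. Among the dimmer kept probes, Nr1d1 A_52_P130961 stood at 0.07 ± 0.09. Clock A_52_P161365, above background on 0 untreated and 2 treated channels, stood at 0.28 ± 0.08. The remaining dimmer probes lay from -0.09 to -0.00. From 1 to 2 h limma called 0 members and 0 genes (0%), with 3 members (Nr1d1, Clock, Per1) at an unadjusted p under 0.05, where Nr1d1 stood at 0.56 ± 0.13 (adjusted p = 0.189).

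The calls from 4 to 6 h were not stable. The calls of all 3 genes from 4 to 6 h ended with the deposited processed signals, with a background offset of 0, with unrepaired local backgrounds, and without the 4 h array of either bacterium. Without the 6 h B. clausii array the Bhlhe40 step was -0.82 (adjusted p = 0.0695). The mean over its probes gave Nr1d1 a step of -0.31 (adjusted p = 0.101). The estimates of all 3 genes for this step stayed below 0 throughout. The Nr1d2 call from 2 to 4 h held in 17 of 21 alternatives. It ended with the processed signals, the series matrix values, an offset of 0 and unrepaired local backgrounds. Leaving out 1 array gave estimates of 0.97 to 1.08 for that rise.

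**Figure D3:**
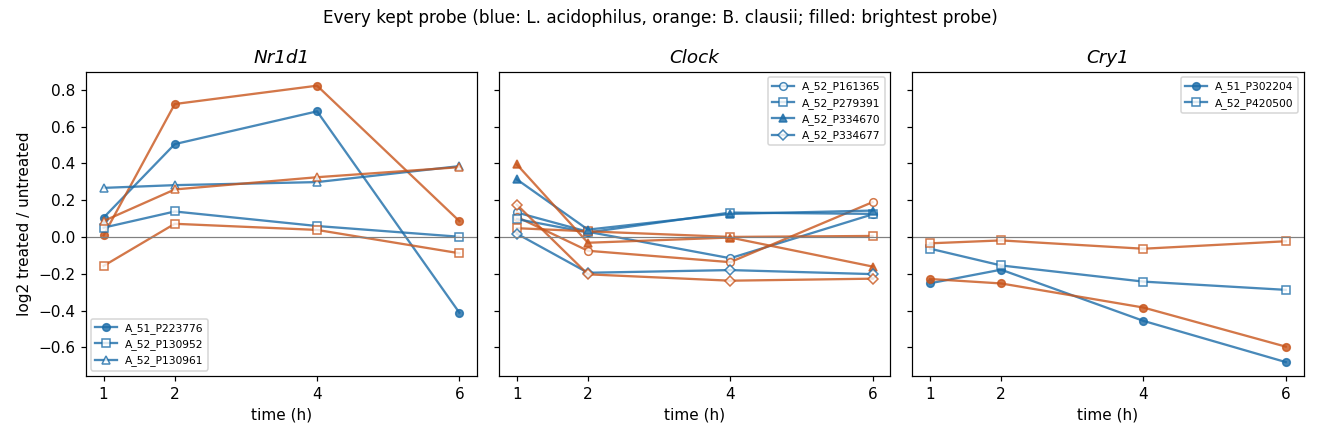
Log2 ratio of treated to untreated signal against time in hours for every kept probe of Nr1d1, Clock and Cry1, with 1 array per point, L. acidophilus in blue, B. clausii in orange, a marker shape per probe and the brightest probe filled. For Nr1d1 the filled probe reaches 0.50 to 0.82 at 2 and 4 h while the other 2 stay between -0.16 and 0.38, and for Clock the 2 brightest probes (triangles and diamonds) lie on different sides of 0 in their mean.

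Of the repressors that bind CLOCK and ARNTL, Cry1 (A_51_P302204) stood at -0.25, -0.18, -0.46 and -0.68 with L. acidophilus against -0.23, -0.25, -0.38 and -0.60 with B. clausii. All 8 arrays were below 0, as for 22.9% of all genes with 1 sign throughout, and both 6 h arrays were the lowest (1.60- and 1.51-fold lower). Its mean was -0.39 ± 0.04 with L. acidophilus (limma adjusted p = 3.07e-04) and -0.37 ± 0.04 with B. clausii (adjusted p = 2.32e-04), and both calls held in 26 of 26 alternatives. With B. clausii the value was -0.73 with median centring and -0.20 as the mean over both kept probes. The fall from early to late was lost with the processed signals and with median centring (-0.15 in each case) and without both 6 h arrays (-0.19, adjusted p = 0.118).

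In the channels, untreated Cry1 ran from 8.27 to 8.96 and treated Cry1 from 7.82 to 8.71, so the ranges overlapped although each treated value was below its own untreated partner. The lowest value of both channels was on the 4 h L. acidophilus array. A second, dimmer Cry1 probe (A_52_P420500) was above background on 6 untreated and 5 treated channels. It was at -0.19 ± 0.04 with L. acidophilus (limma adjusted p = 0.00872), and at -0.04 ± 0.04 with B. clausii it was not called. Its early to late difference of -0.09 ± 0.06 was not called either (limma adjusted p = 0.352 over all kept probes).

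Cry2, the other cryptochrome (A_52_P248378), stood at -0.01, 0.05, 0.08 and -0.16 with L. acidophilus against -0.10, -0.08, 0.46 and -0.01 with B. clausii. The 4 h B. clausii array was the highest, at 1.37-fold, and the other 7 lay between -0.16 and 0.08. The probe was well above background on 6 arrays in each channel, and no comparison called it.

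The period genes moved little. Per1 (A_52_P79889, chr11:68922878-68922937 in mm9, plus strand), the period gene known for rapid induction by outside signals, stood at 0.22, 0.04, -0.04 and -0.17 with L. acidophilus against 0.40, -0.11, 0.25 and 0.07 with B. clausii. Its highest ratio with either bacterium was at 1 h, and 5 of 8 arrays were above 0. The mean was 0.01 ± 0.06 with L. acidophilus (limma adjusted p = 0.872) and 0.15 ± 0.06 with B. clausii (adjusted p = 0.0516), and neither was called.

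The signal of Per1 itself varied as much in untreated as in treated cells, from 6.88 to 7.80 and from 6.95 to 7.92. Untreated Per1 differed by -0.30 ± 0.14 between late and early times, which was not called (adjusted p = 0.480). The call in the treated channel was lost in 7 of 10 alternatives, with estimates of -0.55 to -0.31. Without 1 array it ended for the 1, 2 and 4 h arrays of both bacteria, at adjusted p of 0.111 to 0.204.

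Per2 (A_52_P536869, chr1:93336538-93336597 in mm9, minus strand), a core period gene, stood at 0.22, 0.20, 0.19 and 0.12 with L. acidophilus against -0.02, 0.02, 0.14 and 0.12 with B. clausii. The L. acidophilus arrays of 1, 2 and 4 h were above every B. clausii array, and both 6 h arrays stood at 0.12. The mean of 0.18 ± 0.04 with L. acidophilus was called (limma adjusted p = 0.0110) and that of 0.07 ± 0.04 with B. clausii was not (adjusted p = 0.257). The difference between bacteria, 0.12 ± 0.06, was not called either (adjusted p = 0.296). The first call was lost in 7 of 26 alternatives, among them the fits without the 1, 2 or 4 h L. acidophilus array (0.14, 0.16 and 0.21). The other Per2 probe was above background on 0 arrays.

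Of the activators, Arntl (A_52_P267651, chr7:120456978-120457037 in mm9, plus strand) stood at 0.13, 0.10, 0.27 and -0.41 with L. acidophilus against 0.07, -0.58, 0.33 and -0.23 with B. clausii. Both 4 h arrays were its highest and both 6 h arrays were below 0, while the 2 h arrays lay on opposite sides of 0. That disagreement gave Arntl the largest standard error of the 9 members in the mean responses (0.09), and no comparison called it. Its step from 4 to 6 h was -0.62 ± 0.17 (limma adjusted p = 0.0861).

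Clock (A_52_P334670, chr5:76641377-76641436 in mm9, minus strand), the partner of ARNTL, stood at 0.31, 0.04, 0.13 and 0.14 with L. acidophilus against 0.39, -0.03, -0.00 and -0.16 with B. clausii. The 1 h array was the highest with each bacterium. Its mean of 0.16 ± 0.05 with L. acidophilus was called (limma adjusted p = 0.0353), but the call was lost in 15 of 26 alternatives, and the sign turned with median centring (-0.03). Leaving out the 2, 4 or 6 h L. acidophilus array (0.17, 0.15 and 0.09) or the 2 or 4 h B. clausii array (0.16 in both cases) ended it.

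A second Clock probe, A_52_P334677 (chr5:76641773-76641832 in mm9), lay on the other side of 0. Its means were -0.14 ± 0.04 with L. acidophilus and -0.12 ± 0.04 with B. clausii (limma adjusted p = 0.0296 and 0.0449 over all kept probes). The other 2 Clock probes were dim, above background on 0 and 3 untreated and on 2 and 5 treated channels, and none of their mean responses was called. A direction for Clock therefore depended on the probe.

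No member was called as different between the bacteria: limma called 0 of 9, among 0.639% of all genes, with 1 member (Nr1d2) at an unadjusted p under 0.05. The 95% intervals of the 9 differences all lay within -0.39 and 0.40. A separate fit of the 4 combinations of bacterium and early or late time, with 4 residual degrees of freedom, asked whether the late change differed between the bacteria. It called 0 members and 0 genes (0%), and 0 members had an unadjusted p under 0.05, against 176 of all genes. Its intervals were wide, from -1.38 to 1.49 over the members. Within single bacteria the same fit called 0 members with L. acidophilus (0.0135% of all genes; Nr1d2 and Cry1 at an unadjusted p under 0.05) and 0 with B. clausii (0.188%; Nr1d2 at an unadjusted p under 0.05), where Nr1d2 stood at 0.79 ± 0.22 and 0.71 ± 0.22.

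Of 28 other genes of the clock and its outputs, all on the array, 21 were tested. The 7 not tested were Per3, Npas2, Arntl2, Rora, Rorb, Ciart and Fbxl21. With L. acidophilus 8 rose and 5 fell, and with B. clausii 5 rose and 7 fell, where 42.1% and 44.1% of all genes were called. Between early and late times 7 rose and 4 fell (24.5% of all genes called), with a median of 0.03 against 0.00 over all genes. From 2 to 4 h 3 rose (Dbp, Tef, Usp2) and 2 fell (Nfil3, Csnk1e), where 1.44% of all genes were called. Each of the 5 calls from 2 to 4 h ended without any 1 of the 2 h and 4 h arrays.

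By brightest probe, the largest early to late changes of the listed genes were those of Nfil3 and Dbp. Both act at D-boxes, the output element of the clock. The D-box gene Tef changed less than Usp2 and Csnk1e, given below. A dimmer kept Nampt probe (A_52_P535122) fell by 0.71 ± 0.08 (limma adjusted p = 7.97e-04 over all kept probes). The brightest Nampt probe stood at -0.05 ± 0.07 and was not called. Nfil3, the D-box repressor, stood at 0.87, 0.90, -0.00 and -0.61 with L. acidophilus against 0.57, 0.78, -0.07 and -0.58 with B. clausii. It was higher at 1 and 2 h, level at 4 h and lower at 6 h, and changed by -1.10 ± 0.07 from early to late (limma adjusted p = 9.96e-05). Its second probe fell by 0.93 ± 0.10 (adjusted p = 5.06e-04 over all kept probes).

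Dbp, a D-box activator, went the other way, at -0.04, 0.12, 0.77 and 0.65 with L. acidophilus against -0.05, 0.11, 0.83 and 0.43 with B. clausii. It rose by 0.64 ± 0.06 from early to late (limma adjusted p = 5.23e-04). Tef, of the same family, was highest at 4 h, at 0.62 and 0.53 with L. acidophilus and B. clausii, and rose by 0.38 ± 0.06 (adjusted p = 0.00438), a call that ended without both 4 h arrays (0.18, adjusted p = 0.180). Hlf, another of that family, was near background, its probe being well above it on 0 untreated and 2 treated channels. Its difference of 0.03 ± 0.11 was not called.

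Usp2, a ubiquitin protease with a rhythmic transcript, stood at -0.44, -0.26, 0.34 and -0.04 with L. acidophilus against -0.20, -0.11, 0.36 and 0.28 with B. clausii, and rose by 0.49 ± 0.07 from early to late (limma adjusted p = 0.00178).

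Csnk1e, a kinase of the PER proteins, was the only listed gene called as different between the bacteria, by 0.37 ± 0.06 (limma adjusted p = 0.0449), among 0.639% of all genes. It stood at 0.15, 0.13, -0.30 and -0.26 with L. acidophilus against -0.15, -0.20, -0.69 and -0.72 with B. clausii, so that each L. acidophilus array was above its B. clausii partner. Leaving out any single array ended that call (0.34 to 0.39, adjusted p of 0.123 to 0.262). Csnk1e also fell by 0.48 ± 0.06 from early to late (adjusted p = 0.00117; -0.29 with median centring). The kinases Csnk2a1 and Prkaa1 fell from early to late by 0.34 ± 0.08 and 0.30 ± 0.06 (adjusted p = 0.0183 and 0.0102), whereas the kinases Csnk1d and Gsk3b rose by 0.29 ± 0.06 and 0.26 ± 0.06 (adjusted p = 0.00791 and 0.0211). The second Prkaa1 probe stood at 0.17 ± 0.06, on the other side of 0, and the change was called for 1 of 3 Csnk2a1 probes and 2 of 4 Csnk1d probes.

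**Figure D4:**
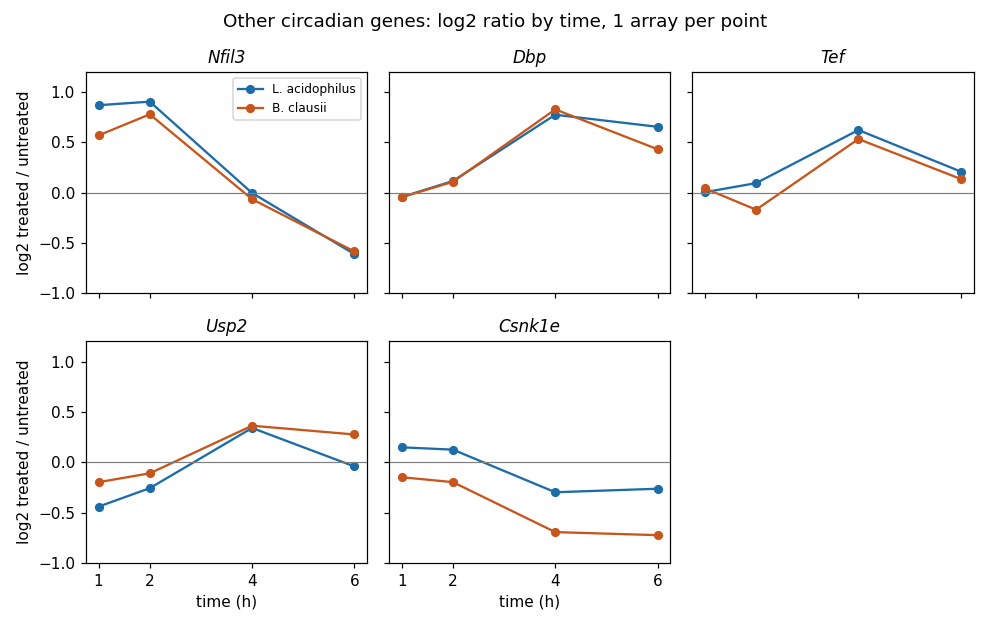
Log2 ratio of treated to untreated signal against time in hours for 5 genes related to the clock, with 1 array per point, L. acidophilus in blue and B. clausii in orange. Nfil3 goes from 0.87 and 0.57 at 1 h to -0.61 and -0.58 at 6 h, and Dbp, Tef and Usp2 are highest at 4 h with both bacteria.

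The genes whose 8 ratios ran most like those of Bhlhe40, among 12469 genes with a symbol, were Arl5c (Pearson r = 0.98), Glrx (0.97), Apobec1 (0.97), Peak1 (0.97) and Gstm1 (0.97). The 3 with the lowest r were Fastkd5 (-0.99), Dnajb14 (-0.96) and Nup35 (-0.96). The likeness is one of course, not of level: Glrx lay below 0 on all 8 arrays, from -0.60 to -0.20, and Peak1 rose to 0.68 and 0.66 on the 4 h arrays. Among the members r with Bhlhe40 ran from 0.02 (Per2) over 0.30 (Nr1d2) and 0.56 (Cry1) to 0.76 (Nr1d1, brightest probe). Over all tested genes the 95th percentile of r was 0.71, and 52 genes were above 0.9. The points are the same 8 arrays for every gene, so these values are a description without a test.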

How the data were processed

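The members and lists were chosen with earlier results of these data known. Spot intensity was deposited, per the file headers, as a foreground mean and a local background median for each channel, together with flags of 0 or 1. The deposited log10 ratios of processed signals were computed by Agilent Feature Extraction, version 10.7.3.1 per the file headers and 10.5.1.1 per the submitters' processing notes. The series matrix holds the authors' log10 ratios of the same arrays, rounded to within 0.005, with red over green and a median of 0 on each array. Probe coordinates (mm9) and sequences are those of the array files.

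Local backgrounds flagged as outliers and over 3 times the array median were replaced by it, and those spots were not used. Background was corrected with normexp (offset 50), followed by loess within arrays, in limma 3.58.1 under R 4.3.3; single channels were then quantile-scaled on the average intensity (Aquantile). Flagged spots were left out and spots of a probe averaged. A probe was kept if either channel was well above background on 2 or more arrays, and a gene was its brightest kept probe. Names came from accessions (27668 probes), other accessions (93), symbols or synonyms (5991, RefSeq GRCm38.p6) or the file (7422). A listed gene and a cell type marker are not reported here. The fit of bacterium and time had 3 residual degrees of freedom (prior 5.70).

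All members were named; of the circadian list at most 5 called genes in each direction of a comparison and any past 2-fold, and 5 genes most and 3 least like Bhlhe40. On simulated data of 14857 genes the fit recovered 92% to 94% of changes of 0.5 log2 in mean responses. The shares were 76% between bacteria, 74% between early and late times, 34% between 2 and 4 h and 11% for bacterium by phase. For changes of 1 log2 they were 100%, 96.5%, 96%, 90.5% and 72%, in the same order. The simulated noise had the residual spread of the fit of bacterium and time. Few genes were changed and no time course was put in, unlike in the data. The shares for bacterium by phase may therefore be too high for genes with strong courses. Its standard errors in the data were 0.46 for Bhlhe40 and 0.51 for Nr1d1. The alternatives were other signals, backgrounds, scalings, filters and priors, a fit without a time term, and leaving out arrays. Another was a threshold of adjusted p under 0.1, which a call at 0.05 cannot fail. For a gene with 1 kept probe, the alternatives of probe filter or probe mean reuse the same ratios. The successive steps were added after seeing the data.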

Additional observations from a re-analysis of the deposited data

Results flagged for a closer look

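Csnk1e, of the wider circadian list, differed between the bacteria in a direct test of the difference: L. acidophilus minus B. clausii was 0.37 (log2, limma adjusted p = 0.0449). The call was lost in 19 of 26 alternatives, with adjusted p up to 0.527, and it was higher with L. acidophilus at 4 of 4 times.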

How the results depend on the processing

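The mean responses of Bhlhe40 and Cry1 to both bacteria and the early to late changes of Nr1d2, Nfil3, Dbp and Csnk1e kept direction and call in 26 of 26 alternatives each, though not size: with B. clausii, Cry1 ranged from -0.73 (median centring) to -0.20 (mean over probes) and Bhlhe40 fell to 0.43 (median centring). Calls of members with L. acidophilus (5) became 2 with the processed signals, the series matrix values, local background as deposited or median centring, and 3 with offset 0 or no time term, and ranged from 2 to 5 leaving out 1 array; B. clausii (4) gave 2 without a time term. Median centring turned the split with L. acidophilus from 4 higher and 1 lower to 1 and 1 and that with B. clausii from 2 and 2 to 1 and 4, reversed the Clock mean (-0.029), shifted the median difference of all genes between bacteria to 0.18 and called 3 members there. Late minus early (2 members) gave 1 with the processed signals, series matrix values or median centring, and 4 without both 2 h or both 4 h arrays. The 2 to 4 h (1) and 4 to 6 h (3) steps gave 0 with the processed signals, series matrix values, offset 0 and local background as deposited, and the latter ranged from 0 to 4 without 1 array. Treated-channel calls (2) became 1 with processed signals at the 75th percentile and ranged from 0 to 2 without 1 array. Members past the fold (1) became 2 with processed signals and 4 at 1.5-fold. Over all genes, calls ranged from 2277 to 7621 with L. acidophilus (6257 as reported), 3451 to 9514 with B. clausii (6545), 0 to 4884 between bacteria (95), 1139 to 4901 from early to late (3637), 0 to 454 from 2 to 4 h (214), 0 to 1308 from 4 to 6 h (523), 0 to 3492 in the treated (1809) and 0 to 687 in the untreated channel (134). The upper ends with L. acidophilus, from early to late and for both steps came from the threshold of adjusted p under 0.1. At 0.05 the largest counts were 6949 with L. acidophilus, 4049 from early to late, 362 from 2 to 4 h and 940 from 4 to 6 h. With time as a block, calls for early to late were 32 with L. acidophilus (2 without) and 67 with B. clausii (28 without). For bacterium by phase they were 0. The causes were not tested.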
